A study of Mus musculus with 55 samples.

Results

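The transcriptional response of the mouse heart to a single oral dose of pure triglyceride was compared between mice lacking the nuclear receptor PPARα (KO) and wild type mice (WT). For each gene the pooled oil response was the mean of the 4 triglyceride group means minus the control group mean, in log2 units. PPARα dependence was the pooled response in WT minus the pooled response in KO, so a positive value means a larger rise, or a smaller fall, in WT hearts. The comparison used 46 of the 55 arrays of the series. The labels number the arrays of a group as replicates and do not say whether each held RNA of a single mouse. These were 20 KO oil arrays, 5 KO control arrays, 18 WT oil arrays and 3 WT control arrays. The arrays gave values for 18194 named genes, and 8238 of these passed a minimum brightness and were tested.

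KO mice were PPARα-/- on the 129S4/SvJae background and WT mice were 129S1/SvImJ, so loss of the receptor and the substrain cannot be told apart. All were male and pure-bred, and all ate an olive oil based AIN76A diet for 2 weeks beforehand. They fasted for 4 h, received 400 µL by gavage, and were killed 6 h later. The oils were triolein (5 KO and 4 WT arrays), trilinolein (5 and 5), trilinolenin (5 and 4) and tridocosahexaenoin (5 and 5). Their fatty acids are oleic, linoleic, linolenic and docosahexaenoic acid in that order, with 1, 2, 3 and 6 double bonds in each chain. Control mice received 0.5% carboxymethyl cellulose per the treatment protocol, although a label field gives their treatment as none, so an oil response also holds the difference between an oil and a watery vehicle. A further 9 arrays, 5 KO and 4 WT, came from mice that received Wy14643, a synthetic activator of PPARα, in the cellulose vehicle. Ages were labelled both as 9 to 12 weeks and as 2 to 6 months.

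PPARα binds fatty acids and, paired with the retinoid X receptor, switches on genes that carry fatty acids into mitochondria and peroxisomes and burn them. In the heart, which runs largely on fat, its known targets include the uncoupling protein Ucp3, the lipase inhibitor Angptl4, the thioesterase Acot1, the pyruvate dehydrogenase kinase Pdk4 and enzymes of β-oxidation. The related receptors PPARβ/δ and PPARγ recognise similar DNA sequences and are also activated by fatty acids.

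The genotype labels were set against the data first. Ppara read 6.93 to 7.58 (median 7.23) on the KO oil arrays and 7.36, 7.39, 7.40, 7.50 and 7.61 on the KO control arrays. On the WT oil arrays it read 7.38 to 8.59 (median 7.96), and on the WT control arrays 8.00, 8.07 and 8.46. All 3 probe sets of the gene were lower in KO, by 0.74, 1.15 and 0.77 log2 units under the oils, but the lowest WT oil arrays overlapped the KO arrays. Where these probe sets lie relative to the deleted part is not given in the sources used here, so the remaining signal does not test the deletion. The lipid droplet protein gene Plin5, a PPARα target, separated all 46 arrays by genotype: it lay between 6.39 and 8.41 in KO and between 9.93 and 10.68 in WT.

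Cardiac muscle genes marked every array as heart, with Myh6, Tnnt2, Actc1 and Myl2 between 13.77 and 14.87. None of the T cell, neutrophil or lung markers was bright enough to be tested. Summed atrial marker signal varied widely between arrays: its median was 16474 (6918 to 22754) on KO oil arrays and 9948 (7076 to 20341) on KO control arrays. On WT oil arrays it was 17443 (6781 to 19557), and on WT control arrays 11157 (8561 to 11546). No atrial marker of the 8 tested was called in either genotype. Their median WT response minus KO response was 0.29, with 0 markers at an unadjusted limma p under 0.05. By oil it was 0.98 with triolein, 0.14 with trilinolein, 0.04 with trilinolenin and -0.21 with tridocosahexaenoin. The part of atrial tissue in the results was not tested. In whole heart tissue, fewer cells of a type and less RNA per cell cannot be told apart.

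No gene responded to the pooled oils differently in the 2 genotypes at an adjusted p under 0.05 (0 of 8238 genes, 0%, limma with Benjamini-Hochberg adjustment over all tested genes). The smallest adjusted p was 0.317. At an unadjusted p under 0.05 there were 330 genes (4.01%), against 411.9 expected if no gene differed. Of these, 140 (1.7%) had a difference above 0 and 190 (2.31%) a difference below 0. The sign orders the 2 responses and does not say which was larger in size. The count at the adjusted threshold was also 0 under each of the 59 alternatives tried. By contrast, the same model called a pooled oil response for 807 genes in KO hearts, 352 that rose (4.27%) and 455 that fell (5.52%). In WT hearts it called 99 genes, 40 that rose (0.486%) and 59 that fell (0.716%). The plot of unadjusted p-values shows these 3 distributions side by side.

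**Figure D1:**
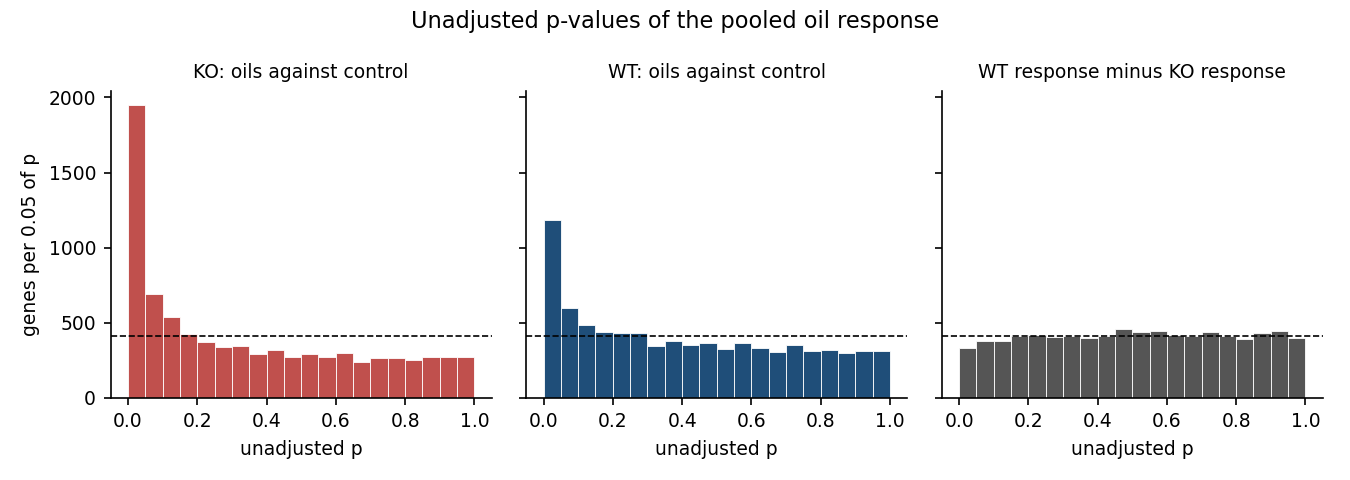
Number of tested genes (vertical axis) in each step of 0.05 of the unadjusted limma p-value (horizontal axis) for the pooled oil response in KO, the pooled oil response in WT and the WT response minus the KO response. The dashed line is the count per step if p-values were spread evenly. The first step holds 1949 genes for KO and 1185 for WT, and 330 for the difference between the genotypes.

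The count of 0 has a known precision. The standard error of the difference between the genotypes had a median of 0.13 log2 units over genes, with 90% of genes between 0.063 and 0.257. The 95% confidence interval lay within a 2-fold difference either way for 8090 genes (98.2%) and within a 1.5-fold difference for 7059 (85.7%). In data simulated at these group sizes and spreads, 200 of 8238 genes were given a difference, with sizes of 0.5, 1 and 2 log2 units mixed. The model called 61.6% of those given 0.5, 95.2% of those given 1 and 99.5% of those given 2. The adjustment is stricter where fewer genes change, so these shares are not the detection rate in data with 0 calls. The measured differences were small for most genes: their absolute size had a median of 0.082, and 99% of genes lay under 0.505. The controls limit this comparison, because 3 WT and 5 KO control arrays enter every difference.

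The call counts within a genotype depended on single control arrays. Without KO control replicate 3 the KO count was 376, and without KO control replicate 2 it was 519. Without WT control replicates 1, 2 and 3 in turn, the WT count was 35, 4 and 21. Of 22 WT responses followed by name, 20 lost their call under at least 1 alternative, and those of Etfbkmt and Nabp1 kept it under all 59.

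Across genes, the response in KO and the response in WT ran in the same direction. The pair shares no array, and over the 8238 genes their correlation was 0.647 (Pearson) and 0.536 (Spearman), given as a description since genes are not independent replicates. Of the 807 genes called in KO, 762 (94.4%) had the same sign in WT, against 5615 of all 8238 (68.2%). Their median absolute response was 0.36 log2 units in KO, and their median response in WT, counted in the KO direction, was 0.23. Of the 99 genes called in WT, 96 (97.0%) had the same sign in KO, with a median of 0.33 in KO and 0.48 in WT. In each set the response was larger in the genotype that chose the genes. Of the 807 genes, 88 had an unadjusted p under 0.05 for the difference between the genotypes, and of the 99 genes 16 had.

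**Figure D2:**
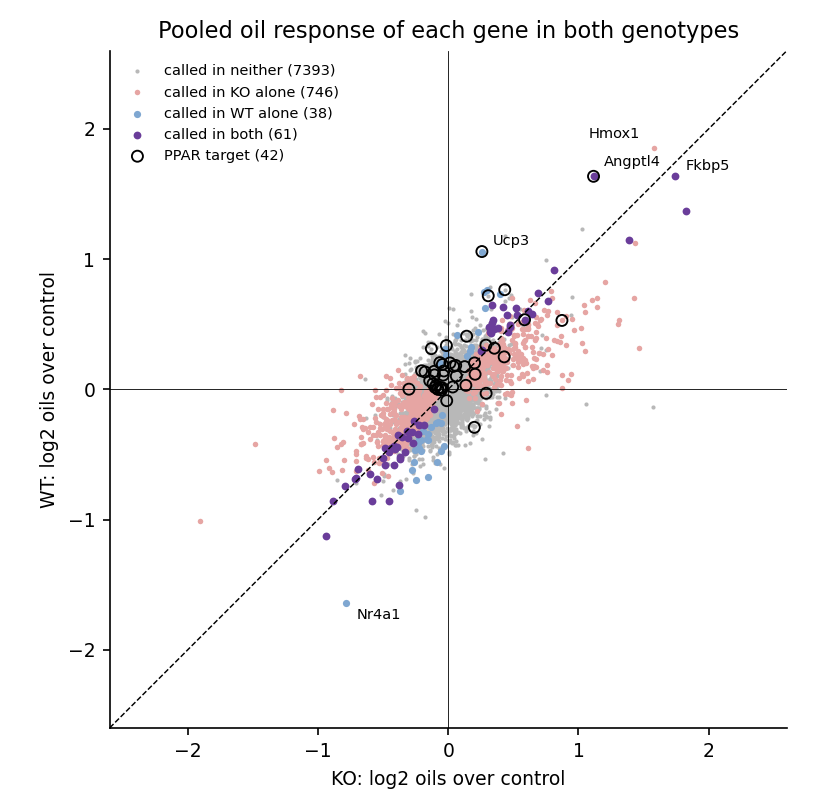
Each point is 1 of the 8238 tested genes, placed by its pooled oil response in KO (horizontal axis, log2 oils over control) and in WT (vertical axis, same unit). The dashed line marks equal responses. Colours give the genotype in which the gene was called, with 61 genes called in both, and open circles mark the 42 tested PPAR target genes. The cloud runs along the line, and Ucp3 lies above it.

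The genes called in both genotypes numbered 61, which is 7.56% of the KO calls and 61.6% of the WT calls. All 61 changed in the same direction, 27 up and 34 down. Without WT control replicates 1, 2 and 3 in turn the count was 22, 3 and 17, and with array weights it was 238. The examples that follow were picked from the 16 with the largest responses in both genotypes, after their values were seen.

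Fkbp5 encodes a cochaperone of the glucocorticoid receptor and is a standard glucocorticoid target. It read 7.99 to 10.30 (median 8.64) on KO oil arrays and 6.25, 6.79, 7.15, 7.38 and 7.51 on KO control arrays. In WT it read 7.73 to 9.69 (median 8.54) on oil arrays and 6.10, 6.74 and 8.12 on control arrays. In KO every oil array lay above every control array, while in WT a single control array reached into the range of the oil arrays. Fkbp5 rose by 1.74 ± 0.28 in KO (SE, adjusted p = 0.000137) and by 1.64 ± 0.35 in WT (adjusted p = 0.0113). Zbtb16, a transcription factor also known as a glucocorticoid target, rose by 1.83 ± 0.25 in KO and 1.37 ± 0.31 in WT. Mt2, a metal-binding metallothionein, rose by 1.39 ± 0.24 in KO and 1.15 ± 0.29 in WT.

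Etfbkmt encodes the methyltransferase of the electron transfer flavoprotein β subunit, which takes electrons from the acyl-CoA dehydrogenases. It read 8.28 to 9.04 (median 8.85) on KO oil arrays and 7.96, 7.99, 8.07, 8.12 and 8.14 on KO control arrays. In WT it read 8.44 to 9.41 (median 9.22) on oil arrays and 8.29, 8.35 and 8.38 on control arrays. Oil and control arrays did not overlap in either genotype. The gene rose by 0.69 ± 0.08 in KO (adjusted p = 7.08e-07) and by 0.74 ± 0.10 in WT (adjusted p = 4.41e-05). Car4, a carbonic anhydrase anchored to the cell surface, behaved in the same way and rose by 0.61 ± 0.10 in KO and 0.60 ± 0.12 in WT. Herpud1, of the endoplasmic reticulum stress response, rose by 0.76 ± 0.13 in KO and 0.68 ± 0.17 in WT.

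Among the genes that fell in both, Ccnd1, which encodes the cell cycle regulator cyclin D1, fell by 0.72 ± 0.11 in KO and by 0.69 ± 0.14 in WT. The fatty acid desaturase gene Scd2 fell by 0.71 ± 0.14 in KO and by 0.68 ± 0.17 in WT. Nabp1, which encodes a protein that binds single-stranded DNA, fell by 0.58 ± 0.10 in KO and by 0.86 ± 0.13 in WT. Some other probe sets of Nabp1 gave positive responses in KO (0.08 and 0.16), while the rest were negative there, and all were negative in WT. The heat shock cochaperone gene Dnajb1 fell by 0.88 ± 0.18 in KO and by 0.85 ± 0.22 in WT. The secreted growth factor gene Fgf16 fell by 0.94 ± 0.23 in KO and by 1.12 ± 0.28 in WT. None of the genes named in these 3 paragraphs is on the list of PPAR targets used here, which reflects how they were picked. Angptl4, from the same set of largest responses in both genotypes, is on that list and is described below.

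**Figure D3:**
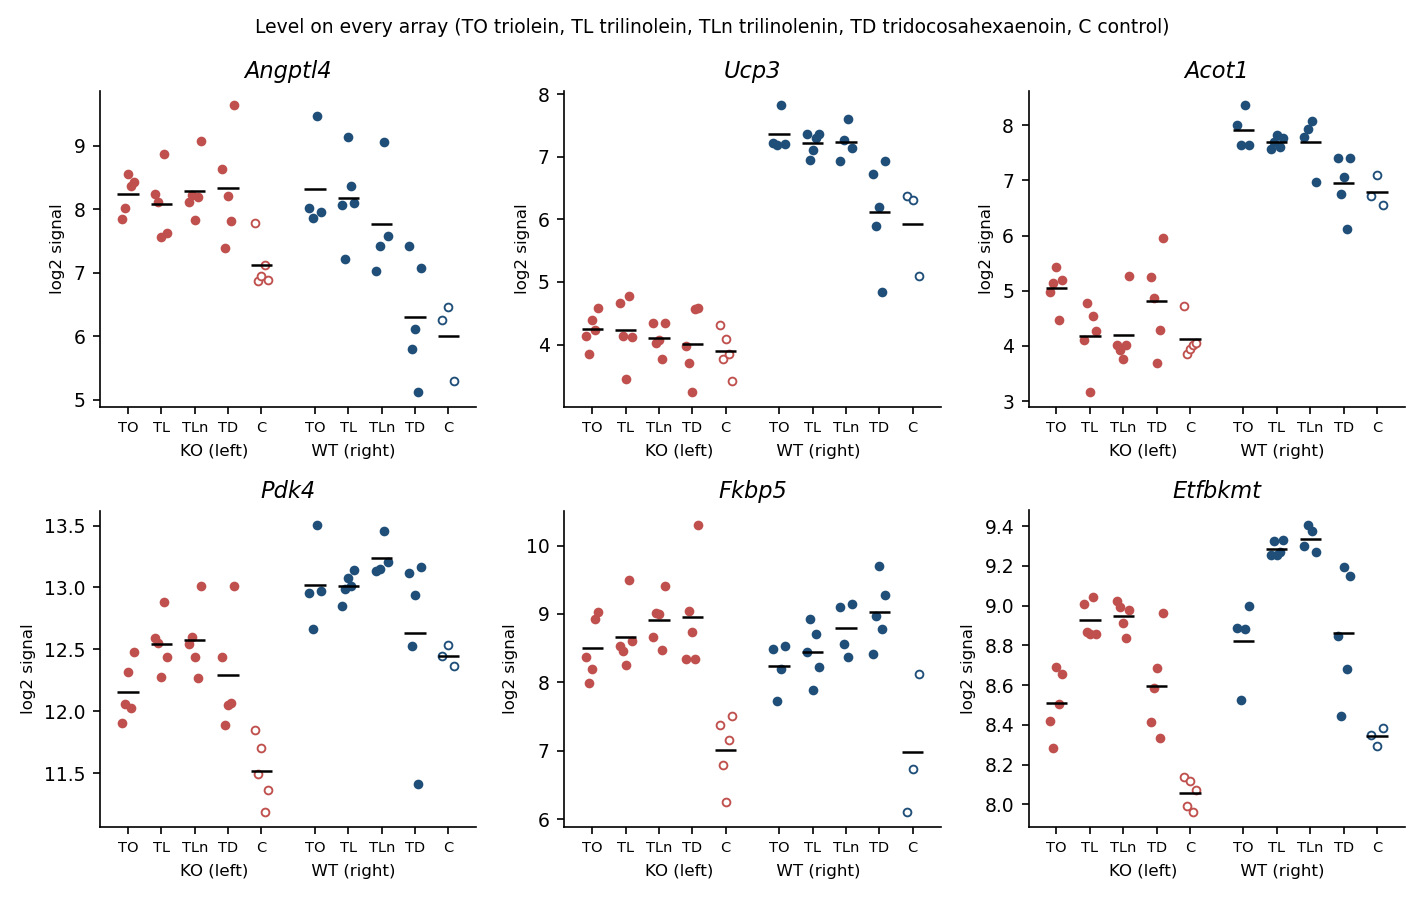
Level of 6 genes on every array (vertical axis, log2 signal), with KO groups on the left in red and WT groups on the right in blue; filled points are oil arrays, open points are control arrays and bars are group means. Angptl4, Fkbp5 and Etfbkmt rose under the oils in both genotypes, Pdk4 was called in KO, and Ucp3 and Acot1 were lower on every KO array than on any WT array.

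The classical PPARα targets were examined by name. Ucp3, which encodes a mitochondrial carrier that responds to fatty acid supply, had the largest positive difference between the genotypes among the 23 index genes tested. It read 3.24 to 4.77 (median 4.14) on KO oil arrays and 3.43, 3.78, 3.85, 4.09 and 4.32 on KO control arrays. On WT oil arrays it read 4.85 to 7.83 (median 7.16), and on WT control arrays 5.09, 6.30 and 6.37. Oil and control arrays overlapped in each genotype, and every KO array lay below every WT array. The pooled response was 0.26 ± 0.21 in KO (adjusted p = 0.495) and a rise of 1.06 ± 0.27 in WT (adjusted p = 0.0305). The WT response minus the KO response was 0.80 ± 0.34, with a 95% interval of 0.116 to 1.48, an unadjusted p of 0.0229 and an adjusted p of 0.997. Both KO means lay under the brightness minimum of 4.32. The second probe set of the gene gave a difference of 1.02.

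Angptl4, which encodes a secreted inhibitor of lipoprotein lipase, rose in both genotypes. It read 7.38 to 9.64 (median 8.20) on KO oil arrays and 6.87, 6.89, 6.94, 7.11 and 7.79 on KO control arrays. On WT oil arrays it read 5.11 to 9.46 (median 7.71), and on WT control arrays 5.30, 6.25 and 6.46. All 20 KO oil arrays and 16 of 18 WT oil arrays lay above their control mean, with overlap in both genotypes. The rise was 1.12 ± 0.30 in KO (adjusted p = 0.0129) and 1.64 ± 0.38 in WT (adjusted p = 0.0223). The KO call was lost without KO control replicate 3 (adjusted p = 0.054 there), and the WT call was lost without any of the 3 WT control arrays. The difference between the genotypes was 0.52 ± 0.49, and its interval of -0.46 to 1.50 does not separate no difference from one of 1.5 log2 units.

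The thioesterases Acot1 and Acot2 release free fatty acids from acyl-CoA in the cytosol and the mitochondrion. Acot1 averaged 4.55 under oils and 4.12 in controls in KO hearts, and 7.56 under oils and 6.80 in controls in WT hearts. Its response was 0.43 ± 0.24 in KO and 0.76 ± 0.30 in WT, neither of which was called, and the difference was 0.33 ± 0.38. The KO control mean lay under the brightness minimum. Acot2 responded by 0.20 ± 0.13 in KO and 0.20 ± 0.16 in WT, a difference of 0.000587 ± 0.20.

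Pdk4 encodes the kinase that shuts off pyruvate dehydrogenase when fat is burned. It read 11.88 to 13.01 (median 12.44) on KO oil arrays and 11.18, 11.36, 11.50, 11.70 and 11.85 on KO control arrays. On WT oil arrays it read 11.41 to 13.51 (median 13.04), and on WT control arrays 12.36, 12.44 and 12.53. The KO oil arrays all lay above the KO controls, whereas the WT groups overlapped. Pdk4 rose by 0.87 ± 0.16 in KO (adjusted p = 0.000385) and its response in WT was 0.53 ± 0.20 (adjusted p = 0.184). The WT response minus the KO response was -0.34 ± 0.26 (interval -0.87 to 0.18).

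The perilipins coat lipid droplets. Plin2 rose by 0.29 ± 0.09 in KO (adjusted p = 0.0415) and its response in WT was 0.34 ± 0.12 (adjusted p = 0.133), a difference of 0.05 ± 0.15. Plin5 rose by 0.43 ± 0.14 in KO (adjusted p = 0.0481) against 0.25 ± 0.18 in WT, a difference of -0.18 ± 0.23, although its level in KO was about 3 log2 units lower. The second Plin5 probe set gave 0.15 in KO and 0.30 in WT, a difference of 0.16, so the sign depends on the probe set. The calls for these 2 genes in KO lay near the threshold and were lost in 16 and 40 of the 59 alternatives. Plin4, also a droplet protein and chosen after its values were seen, rose in both, by 0.59 in KO and 0.53 in WT.

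Genes of fatty acid entry had small differences. Cd36 rose by 0.14 ± 0.04 in KO (adjusted p = 0.0332) and responded by 0.03 ± 0.05 in WT. The difference between the genotypes was -0.10 ± 0.07 for the fatty acid translocase Cd36, 0.07 ± 0.04 for the heart fatty acid-binding protein Fabp3 and -0.02 ± 0.04 for lipoprotein lipase, Lpl. For the mitochondrial entry enzyme Cpt1a it was -0.08 ± 0.20, for the carnitine carrier Slc25a20 0.14 ± 0.10, and for the dehydrogenase Acadl 0.05 ± 0.05. For Ech1, an enoyl-CoA isomerase of mitochondria and peroxisomes, it was 0.15 ± 0.07 (unadjusted p = 0.0537). Cpt2, which reforms acyl-CoA inside the mitochondrion, averaged 9.57 under oils and 9.62 in controls in KO, and 11.06 under oils and 10.87 in controls in WT. Its difference was 0.24 ± 0.08 (unadjusted p = 0.0029, adjusted p = 0.997), and 6 of 20 KO oil arrays against 18 of 18 WT oil arrays lay above their control mean. Cpt1b, also on the index list, was not analysed here.

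**Figure D4:**
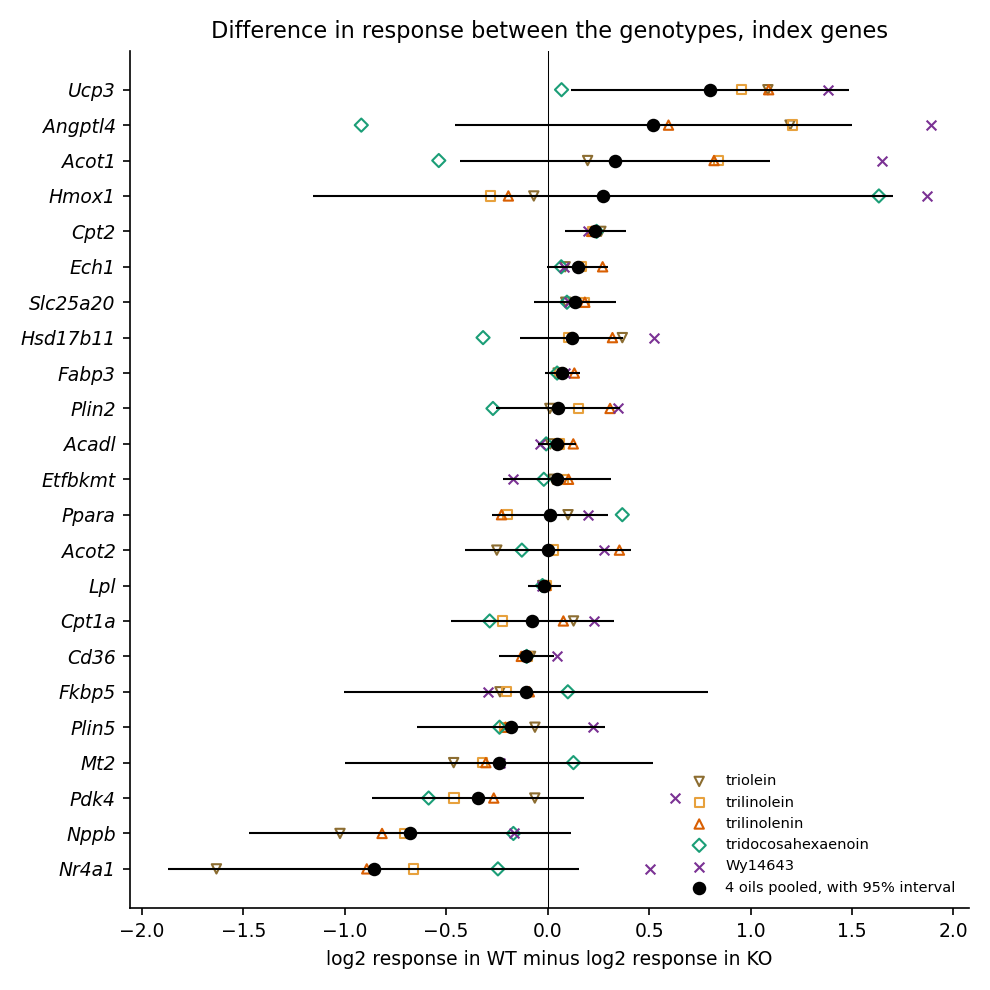
WT response minus KO response (horizontal axis, log2 units) for the 23 index genes; black points with lines are the pooled oils with their 95% interval, open symbols are the single oils and crosses are Wy14643. The interval lies clear of 0 for Ucp3 and Cpt2, neither of which passed adjustment, and the tridocosahexaenoin point lies left of the other oils for Ucp3, Angptl4, Acot1 and Hsd17b11.

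Most PPAR targets had a more positive response in WT than in KO. Of 54 listed genes 42 were tested, and 32 of the 42 had a positive difference, against 3806 of all 8238 tested genes. The median was 0.12 log2 units, against -0.01 for all tested genes. At an unadjusted p under 0.05, 12 of 42 (28.6%) had a difference above 0, against 1.7% of all genes, and 1 (Adipor2) had one below 0, against 2.31%. Those 12 were Acaa2, Acadvl, Cat, Cpt2, Eci1, Eci2, Hadha, Hsdl2, Mlycd, Slc22a5, Ucp3 and Tmem143, and none passed adjustment. Among them Acaa2, Acadvl and Tmem143 moved more in KO, with responses of -0.14, -0.09 and -0.18, than in WT, with 0.07, 0.03 and 0.13. Without WT control replicate 3 the 12 became 4, without KO control replicate 1 they became 6, and without the trilinolenin groups they became 6. The median stayed between 0.0915 and 0.158 under all 59 alternatives. The list was drawn up with earlier results of these data known, and all its members share the same control arrays. These shares therefore describe the list and do not test it.

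Over the 42 tested PPAR targets the median response was 0.00 in KO and 0.14 in WT. In KO, where 4.27% of all genes rose and 5.52% fell, 9 of the 42 rose and 0 fell: Adipor2, Angptl4, Cd36, Fabp4, Pdk4, Plin2, Plin4, Plin5 and Txnip. In WT, where 0.486% of all genes rose and 0.716% fell, 4 rose and 0 fell: Angptl4, Eci2, Plin4 and Ucp3. Angptl4 and Plin4 were thus called in both. The level of these genes differed far more by genotype than their response did. In controls 27 of 42 were lower in KO, against 2.06% of all genes, and 1 was higher, against 1.55%. Under the oils 32 were lower, against 13.5% of all genes, and 3 were higher, against 20.4%.

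The list of mitochondrial fatty acid oxidation, many members of which are among the PPAR targets, also had mostly positive differences, of smaller size. Of 29 listed genes 27 were tested, and 24 had a positive difference, against 3806 of all 8238 tested genes, with a median of 0.08. At an unadjusted p under 0.05, 7 of 27 (25.9%) had a difference above 0, against 1.7% of all genes, and 0 one below 0: Acaa2, Acadvl, Cpt2, Eci1, Eci2, Hadha and Mlycd. That count was 3 without WT control replicate 3, 4 without KO control replicate 1 and 4 without the trilinolenin groups. All of these 7 genes are among the PPAR targets named above, so they are not a separate result. The median response over the 27 genes was -0.06 in KO and 0.03 in WT. The calls in the list were Eci2, which rose in WT, and Dlst, which fell in KO. Dlst encodes an enzyme of the tricarboxylic acid cycle, not of β-oxidation itself.

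Eci2, an enoyl-CoA isomerase needed for unsaturated fatty acids, had the smallest p of all genes. It read 9.52 to 9.80 (median 9.64) on KO oil arrays and 9.62, 9.70, 9.72, 9.74 and 9.83 on KO control arrays. In WT it read 10.30 to 10.56 (median 10.46) on oil arrays and 10.23, 10.23 and 10.26 on control arrays. Every WT oil array lay above every WT control array, while the KO groups overlapped. Its response was -0.06 ± 0.04 in KO and a rise of 0.20 ± 0.05 in WT (adjusted p = 0.0173). The difference of 0.27 ± 0.06 had an adjusted p of 0.317. Mlycd, which removes malonyl-CoA and so relieves the brake on fatty acid entry, responded by -0.13 ± 0.10 in KO and 0.31 ± 0.13 in WT. Hadha, of the trifunctional protein, responded by -0.11 ± 0.06 in KO and 0.14 ± 0.08 in WT.

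PPARα and its partner bind direct repeats of AGGTCA spaced by a single base, and windows of 250 bases before the RefSeq gene starts (GRCm38.p6) were searched for AGGTCANAGGTCA on both strands with up to 2 mismatches. The search left out a whole chromosome, and genes on it count here as having no window. Of the 32851 windows searched, 1063 (3.24%) held a match, which is 1005 of 27025 genes (3.72%). Of the 42 PPAR targets 33 had a window, and 5 of these (15.2%) held a match. Of the 27 oxidation genes 23 had a window, and 2 (8.70%) held one. A match describes letters in this window only, and PPAR sites outside it were not searched. The windows of Ucp3 (chr7:100472741-100472990, plus strand), Cat (chr2:103485154-103485403, minus strand) and Plin2 (chr4:86670060-86670309, minus strand) are printed 5′ to 3′ on the strand of the gene, with the bases that match on either strand in capitals. They are shown because Ucp3 and Cat had a difference above 0 at an unadjusted limma p under 0.05. Plin2, with a match as close, is shown beside them and had responses of 0.29 in KO and 0.34 in WT. Cd36 also held a match with 2 mismatches and is not printed, and its responses were 0.14 in KO and 0.03 in WT.
Ucp3: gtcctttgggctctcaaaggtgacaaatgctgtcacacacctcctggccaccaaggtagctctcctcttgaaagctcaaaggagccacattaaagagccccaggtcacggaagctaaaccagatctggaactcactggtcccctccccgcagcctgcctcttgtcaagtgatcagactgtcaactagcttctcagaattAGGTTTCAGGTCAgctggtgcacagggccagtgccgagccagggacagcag
Cat: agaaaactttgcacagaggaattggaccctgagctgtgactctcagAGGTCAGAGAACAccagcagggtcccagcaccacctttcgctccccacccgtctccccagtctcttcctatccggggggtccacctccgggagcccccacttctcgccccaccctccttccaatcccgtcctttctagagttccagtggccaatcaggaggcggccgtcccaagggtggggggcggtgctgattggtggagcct
Plin2: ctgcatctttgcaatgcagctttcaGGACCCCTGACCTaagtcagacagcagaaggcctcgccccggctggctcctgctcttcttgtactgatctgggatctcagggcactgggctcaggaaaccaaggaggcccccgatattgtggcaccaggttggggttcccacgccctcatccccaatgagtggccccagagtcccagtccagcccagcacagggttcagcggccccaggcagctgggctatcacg

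Beyond oxidation, most lists of lipid handling showed little difference between the genotypes. The list of fatty acid and cholesterol synthesis leaned to a more positive response in KO. Of its 22 tested genes 7 had a positive difference, against 3806 of all 8238, with a median of -0.10. At an unadjusted p under 0.05, 2 (9.09%) had a difference below 0, against 2.31% of all genes, and 0 had one above 0. In the list of fatty acid uptake, storage and lipolysis, 33 genes were tested with a median difference of 0.01, and 1 (Gpam) had an unadjusted p under 0.05. In KO 11 of the 33 rose, against 4.27% of all genes, and 0 fell, among them the lipases Pnpla2 (0.26) and Lipe (0.52), the capillary anchor of lipoprotein lipase Gpihbp1 (0.51) and the droplet enzyme Hsd17b11 (0.32). In WT 4 rose, against 0.486% of all genes, and 0 fell: Angptl4, Plin4, Lipe (0.62) and Hsd17b11 (0.44). Of the 17 peroxisomal genes tested, 2 (Cat and Pex19) had a difference above 0 at an unadjusted p under 0.05, against 1.7% of all genes, with a median of 0.05 and no call in either genotype. Of the 30 genes of oxidative phosphorylation, 26 had a positive difference, a share near that of the oxidation genes, with a median of 0.03. Among them 2 (Ndufa1 and Sdhc) had a difference above 0 at an unadjusted p under 0.05, against the same 1.7%. The 22 genes of glucose use had a median of 0.02 and 0 at that threshold, and in KO 3 of them rose, against 4.27% of all genes: Pdk4, Txnip and the glucose transporter gene Slc2a1.

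The adipocyte markers were read beside the storage genes, since Fabp4 is in both lists. Of 9 markers 3 were bright enough to be tested (Pparg, Fabp4 and Car3). Their summed signal, with that of the dim markers, was 12695 to 18305 on KO oil arrays and 11614 to 12747 on KO control arrays. It was 8845 to 11943 on WT oil arrays and 9324 to 9534 on WT control arrays. Fabp4 rose by 0.21 in KO and its response in WT was 0.12. Pparg, the receptor that drives fat cell formation, rose by 0.94 ± 0.20 in KO and its response in WT was 0.11 ± 0.25. The difference for Pparg was -0.83 ± 0.32 (unadjusted p = 0.012), and it did not pass adjustment. The part of fat cells in these values was not tested.

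**Figure D5:**
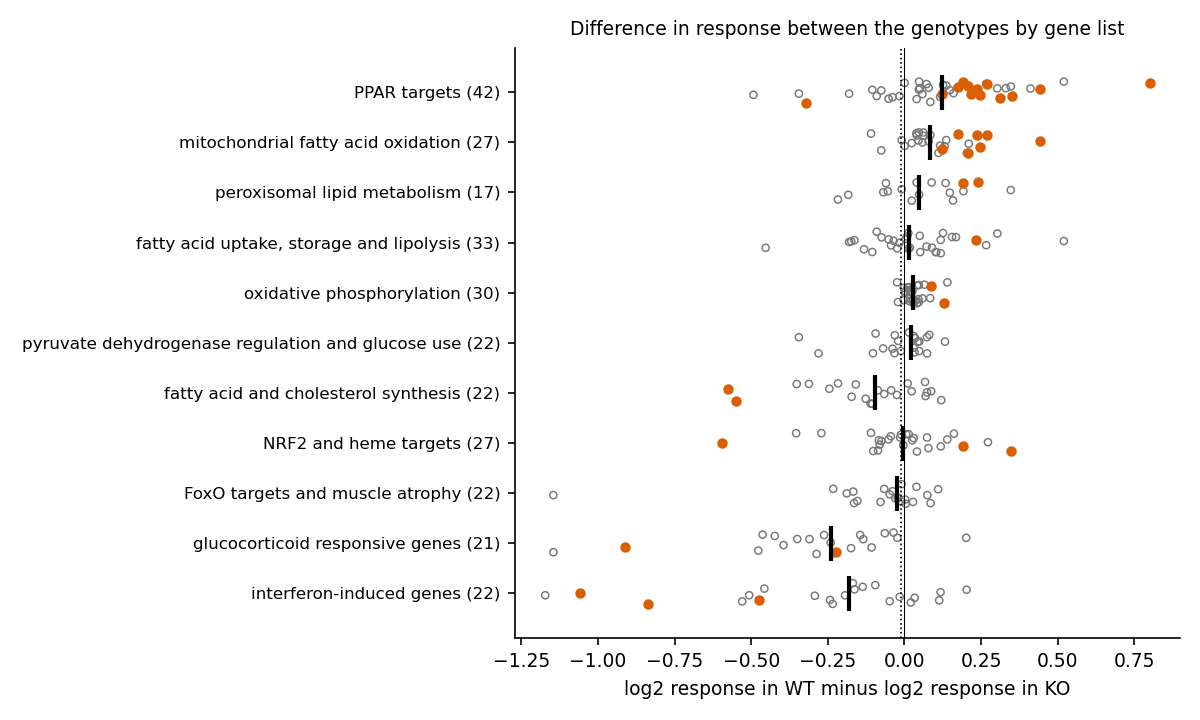
WT response minus KO response (horizontal axis, log2 units) for every tested member of 11 gene lists, with the number tested in parentheses; filled orange points have an unadjusted p under 0.05, thick bars are list medians and the dotted line is the median of all tested genes. The medians of the PPAR targets (0.12) and oxidation genes (0.08) lie right of 0, and those of the glucocorticoid (-0.24) and interferon (-0.18) lists lie left of it.

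For glucocorticoid responsive genes the difference between the genotypes depended on single control arrays, in a check chosen after seeing the data. Of 21 glucocorticoid responsive genes tested, 13 rose in KO, against 4.27% of all genes, and 0 fell, with a median response of 0.55. In WT 4 rose, against 0.486% of all genes, and 0 fell, with a median of 0.25: Fkbp5, Zbtb16, Mt1 and Mt2. The difference was below 0 for all but 1 of the 21, while 3806 of all 8238 genes had one above 0, and the list median was -0.24. At an unadjusted p under 0.05, 2 (9.52%) had a difference below 0, against 2.31% of all genes. WT control replicate 3 had the highest control level of Fkbp5 (8.12), Zbtb16 (9.34), Mt2 (9.55) and Cdkn1a (7.37). Without it the median difference was -0.05, 15 of the 21 were below 0 and 0 had an unadjusted p under 0.05. Without WT control replicate 1 the median was -0.44, and 7 of the 21 were below 0 at that threshold. Without KO control replicate 5 there were 8, and without KO control replicate 1 there were 0. With all arrays the 2 were the transcription factor gene Klf9 (-0.22 ± 0.10) and the receptor inhibitor gene Errfi1 (-0.91 ± 0.38). Other probe sets of Klf9 gave differences from -0.29 to 0.06. Errfi1 averaged 7.97 under oils and 7.56 in controls in KO, and 7.82 under oils and 8.31 in controls in WT, so the WT oil mean was lower than its control mean. The controls themselves differed for the list, with a median 0.17 lower in KO, and 0 of the 21 were called there.

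Among FoxO targets, which rise when insulin signalling is low, 12 of 22 tested genes rose in KO, against 4.27% of all genes, and 3 in WT, against 0.486%, and none fell. The median response was 0.32 in KO and 0.29 in WT, the median difference was -0.03 and 0 genes reached an unadjusted p under 0.05. The ubiquitin ligase gene Fbxo32 rose by 0.26 in KO and 0.30 in WT, and the cell cycle inhibitor gene Cdkn1b by 0.35 in KO and 0.46 in WT. Cdkn1a, a second cell cycle inhibitor, rose by 1.46 ± 0.37 in KO and its response in WT was 0.32 ± 0.46. Its difference was -1.15 ± 0.59, with an interval of -2.34 to 0.05.

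Of 27 targets of the oxidative stress factor NRF2, 5 rose in KO, against 4.27% of all genes, and 3 in WT, against 0.486%, and none fell. The median difference of the list was -0.003. Hmox1, which encodes the heme-degrading oxygenase, rose by 1.58 ± 0.44 in KO (adjusted p = 0.0163) and its response in WT was 1.85 ± 0.55 (adjusted p = 0.0727). It read 4.17 to 9.34 (median 7.29) on KO oil arrays and 4.92, 5.12, 5.42, 5.44 and 6.00 on KO control arrays. In WT it read 4.22 to 9.18 (median 7.44) on oil arrays and 4.39, 5.66 and 6.29 on control arrays. The spread under the oils was wide in both genotypes, and triolein arrays stayed near the controls (mean 5.39 in each genotype). The difference was 0.27 ± 0.71, an interval of -1.16 to 1.70 that allows a large difference either way, and the KO call was lost without KO control replicate 3. Gclc, a subunit of the enzyme that makes glutathione, responded by 0.32 ± 0.11 in KO and -0.28 ± 0.14 in WT (unadjusted p = 0.0015 for the difference). The others at an unadjusted p under 0.05 had a difference above 0: Cat (0.19 ± 0.09) and the oxidative stress growth inhibitor gene Osgin1 (0.35 ± 0.14).

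Most interferon-induced genes had a more positive response in KO than in WT. Of 22 tested, 5 had a positive difference, against 3806 of all 8238 tested genes, and the median was -0.18. At an unadjusted p under 0.05, Ifit3 (-0.84 ± 0.39) and Irgm1 (-0.47 ± 0.21) had a difference below 0, where 2.31% of all genes had one. Usp18 (-1.06 ± 0.30) reached that threshold too but is left out of this comparison. It passed the brightness minimum on KO arrays alone, since its highest WT oil or control array read 3.14, and its value supports nothing here. The 22 genes and all medians and counts given for them still include Usp18. Members of the list not named here were not checked in this way. The list median lay between -0.24 and -0.10 when single control arrays were left out. Their level was already higher in KO, by a median of 0.39 in controls and 0.66 under the oils, and 19 of the 22 were called higher in KO under the oils, against 20.4% of all genes. The 11 tested macrophage markers had a median difference of -0.08, and their summed signal was 2708 to 3611 on KO oil arrays and 2559 to 3053 on KO control arrays. It was 2413 to 3547 on WT oil arrays and 2521 to 2629 on WT control arrays. The part of macrophages in the interferon values was not tested.

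The other genes of smallest p were chosen after their values were seen, and each had an adjusted p of 0.997. Slc25a42, the mitochondrial carrier of coenzyme A, fell by 0.39 ± 0.08 in KO (adjusted p = 0.0021) and its response in WT was 0.15 ± 0.11, a difference of 0.54 ± 0.14. It lay at 6.99 to 7.96 on KO oil arrays and 7.72 to 8.11 on KO control arrays, and at 7.57 to 8.52 on WT oil arrays and 7.77 to 8.24 on WT control arrays. Slc47a1, an exporter of organic cations, responded by -0.02 ± 0.05 in KO and rose by 0.26 ± 0.06 in WT. In the other direction, Igfbp3, a binding protein of insulin-like growth factors, rose by 0.53 ± 0.14 in KO and responded by -0.28 ± 0.18 in WT, a difference of -0.81 ± 0.23. The cholesterol exporter gene Abca1 responded by 0.21 ± 0.10 in KO and -0.34 ± 0.13 in WT, a difference of -0.55 ± 0.16. Golgb1, Smc5, P2rx4, Usp4 and Dcaf13 also had positive responses in KO (0.09 to 0.22) and negative ones in WT (-0.27 to -0.15), with differences from -0.45 to -0.29. Another probe set of Smc5 gave a WT response of 0.07 and a difference of -0.06, and another of P2rx4 gave a difference of -0.12.

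Only 3 genes called in WT ran the other way in KO, namely Aldh9a1, Eci2 and Slc47a1. Aldh9a1, an aldehyde dehydrogenase of carnitine synthesis, responded by -0.02 ± 0.07 in KO and rose by 0.31 ± 0.08 in WT (adjusted p = 0.0381), a difference of 0.34 ± 0.10. Another probe set of Aldh9a1 gave 0.04 in KO and 0.42 in WT, which is the same direction. The responses of these 3 genes in KO were within 2 standard errors of 0. Nr4a1, an immediate early nuclear receptor, was called in WT, where it fell by 1.64 ± 0.39, and its response in KO was -0.79 ± 0.31 (adjusted p = 0.105), a difference of -0.86 ± 0.50. The natriuretic peptide gene Nppb responded by -0.25 ± 0.25 in KO and -0.93 ± 0.31 in WT, a difference of -0.68 ± 0.39.

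The single oils were set side by side, since they share both control groups. The difference between the genotypes was called for 0 genes with triolein, trilinolein, trilinolenin and tridocosahexaenoin, with 399, 301, 383 and 255 genes at an unadjusted p under 0.05. A test among the 4 oils, in which the controls cancel, called 0 genes (326 at an unadjusted p under 0.05), and tridocosahexaenoin against the mean of the 3 C18 oils called 0 (445). The PPAR target median was 0.11 with triolein, 0.15 with trilinolein, 0.20 with trilinolenin and 0.05 with tridocosahexaenoin.

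For Angptl4 the oils differed in sign. Its difference between the genotypes was 1.19 with triolein, 1.21 with trilinolein, 0.60 with trilinolenin and -0.92 with tridocosahexaenoin (unadjusted p = 0.000785, adjusted p = 0.694 for the test among oils). With tridocosahexaenoin it read 7.38, 7.81, 8.21, 8.63 and 9.64 in KO and 5.11, 5.80, 6.11, 7.07 and 7.42 in WT, so only the highest WT array overlapped the KO arrays. With trilinolein it read 7.56, 7.63, 8.10, 8.24 and 8.87 in KO and 7.21, 8.07, 8.10, 8.36 and 9.13 in WT, with full overlap.

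Ucp3 and Hsd17b11 also had their lowest difference with tridocosahexaenoin. The difference for Ucp3 was 1.09 with triolein, 0.95 with trilinolein, 1.09 with trilinolenin and 0.07 with tridocosahexaenoin (unadjusted p = 0.0299 for the test among oils). With tridocosahexaenoin Ucp3 read 3.24, 3.71, 3.98, 4.57 and 4.59 in KO and 4.85, 5.89, 6.19, 6.73 and 6.93 in WT. With triolein it read 3.86, 4.15, 4.24, 4.40 and 4.59 in KO and 7.19, 7.21, 7.22 and 7.83 in WT, all of these WT arrays above those with tridocosahexaenoin. Hsd17b11 had the smallest p in the test among oils (5.28e-05 unadjusted, 0.29 adjusted). Its differences were 0.37 with triolein, 0.11 with trilinolein, 0.32 with trilinolenin and -0.32 with tridocosahexaenoin.

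The Wy14643 arrays were read beside the oils, as a treatment with a synthetic activator of the receptor. Of the 8238 tested genes, a response to Wy14643 was called for 6 in KO and 5 in WT. The response was thus not limited to hearts with the receptor. The difference between the genotypes for Wy14643 was called for 0 genes as well, with 362 genes at an unadjusted p under 0.05. Of the 42 PPAR targets 9 had a difference above 0 at that threshold, against 2.62% of all genes, and their median was 0.18. For Angptl4 it was 1.89 (unadjusted p = 0.00299), for Acot1 1.65 (0.00105), for Ucp3 1.38 (0.00196), for Mlycd 1.04 and for Pdk4 0.63. The difference of the pooled oils minus that of Wy14643, in which the controls cancel, was called for 0 genes, with 643 (7.81%) at an unadjusted p under 0.05 and none under an adjusted p of 0.1.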

How the data were processed

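Heart RNA was measured on 55 Affymetrix arrays. The deposited values are log2 signals, made by the authors with GCRMA 2.2.0, per the submitters' processing notes. Background, quantile scaling and probe summary are therefore already in them. Intensity depth is unknown beyond the signal itself, and the number of arrays limits the precision. Of 45101 probe sets, 34958 had 1 gene symbol, and the one with the highest mean stood for each of 18194 genes. Genes over 20 on the linear scale (4.32 in log2) in at least 3 arrays were tested, 8238 (45.3%).

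A model of 12 group means was fitted to all arrays with limma 3.58.1 in R 4.3.3, with Benjamini-Hochberg adjustment at 0.05. The genotype difference was the mean of the 4 oil responses in WT minus that in KO. The model was tested on simulated data. P-values measure only the spread between these arrays, which may be technical. Replicate numbers paired no arrays: residuals of same-numbered arrays had a median correlation of 0.000354 (281 pairs), against -0.00879 for others (1103 pairs). Genes were named by a fixed index list, by list membership, or after their values were seen. Members and lists were chosen with earlier results of these data known. Alternatives covered filters, probe sets, scaling, variance priors, weights, oils and single arrays.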

Additional observations from a re-analysis of the deposited data

Results flagged for a closer look

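Among 612 sets of arrays (1 named gene in 1 group of 4 or 5 arrays), 34 in 27 genes had an array that stood apart from the others of its group by Dixon's test. Chance alone flags about 1 in 20 sets. Values are log2 signals, and no cause was tested.

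In KO hearts, the following arrays were the highest of their group. Control replicate 1 had Angptl4 at 7.787 (nearest other 7.114) and Acot1 at 4.729 (nearest other 4.06). Tridocosahexaenoin replicate 1 had Dnajb1 at 7.496 (nearest other 6.268). Tridocosahexaenoin replicate 3 had Usp4 at 7.861 (nearest other 7.648). Tridocosahexaenoin replicate 4 had Tmem51 at 5.263 (nearest other 4.77). Tridocosahexaenoin replicate 5 had Hsd17b11 at 8.184 (nearest other 7.997), Adipor2 at 9.076 (nearest other 8.703) and Setdb2 at 7.935 (nearest other 4.956). Trilinolein replicate 4 had Fkbp5 at 9.494 (nearest other 8.603). Trilinolenin replicate 1 had Nr4a1 at 8.729 (nearest other 7.209). Trilinolenin replicate 5 had Acot1 at 5.266 (nearest other 4.023).

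In KO hearts, the following arrays were the lowest of their group. Tridocosahexaenoin replicate 5 had Aplnr at 2.848 (nearest other 5.729). Trilinolenin replicate 3 had Slc25a42 at 6.995 (nearest other 7.328).

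In WT hearts, the following arrays were the highest of their group. Tridocosahexaenoin replicate 3 had Abca1 at 9.009 (nearest other 8.537). Tridocosahexaenoin replicate 4 had Tfrc at 8.429 (nearest other 6.447). Trilinolein replicate 1 had Cpt1a at 7.598 (nearest other 7.375). Trilinolein replicate 5 had Plin2 at 9.409 (nearest other 9.211). Triolein replicate 1 had Klf9 at 11.067 (nearest other 10.779). Triolein replicate 2 had Nabp1 at 8.266 (nearest other 8.083) and Tfrc at 7.533 (nearest other 6.595). Triolein replicate 3 had Angptl4 at 9.461 (nearest other 8.023) and Ucp3 at 7.827 (nearest other 7.222). Triolein replicate 4 had Cdkn1a at 7.478 (nearest other 6.486).

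In WT hearts, the following arrays were the lowest of their group. Tridocosahexaenoin replicate 4 had Hmox1 at 5.063 (nearest other 8.668) and Klf9 at 10.854 (nearest other 11.122). Trilinolein replicate 1 had Acadl at 12.688 (nearest other 12.852). Trilinolein replicate 2 had Hsdl2 at 10.248 (nearest other 10.43). Trilinolein replicate 3 had Nr4a1 at 5.418 (nearest other 6.767). Trilinolein replicate 5 had Fgf16 at 4.141 (nearest other 4.927). Trilinolenin replicate 1 had Cpt1a at 7.209 (nearest other 7.518) and Lpl at 13.568 (nearest other 13.66). Trilinolenin replicate 4 had Acaa2 at 11.7 (nearest other 11.972) and Fam78a at 4.082 (nearest other 4.466). Triolein replicate 4 had Fam78a at 4.097 (nearest other 4.77).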

How the results depend on the processing

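The pooled genotype difference was called for 0 genes under all 59 alternatives, including 0 with the replicate block. Genes at an unadjusted p under 0.05 numbered 205 to 831. The pooled response in KO (807 calls) gave 460 without trilinolenin and 376 to 937 when single arrays were left out. The response in WT (99) gave 35 without the filter on dim genes, 375 with array weights, 290 without triolein, 28 without trilinolenin, and 4 to 154 without single arrays. KO against WT controls (298) gave 193 to 322 without single arrays. Trilinolenin alone gave 1 with a filter at 100, 2 with the mean of all probe sets, 1 with array weights, 1 with a trended robust prior, and 0 to 1 without single arrays. Tridocosahexaenoin against the C18 oils gave 2 with the filter at 100, 1 with the trended prior, and 0 to 8 without single arrays. Pooled oils minus Wy14643 gave 7 with array weights, 1 with the replicate block, and 0 to 2 without single arrays.

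Of 2945 single-gene differences between genotypes, 2890 kept their direction and 55 in 8 genes did not. Ppara gave -0.0238 with the mean of all probe sets, -0.00183 with the replicate block, -0.0188 without triolein, -0.108 without tridocosahexaenoin, and -0.0775 to 0.151 without single arrays. Acot2 gave -0.00405 with equal array weight, -0.0079 without trilinolein, -0.117 without trilinolenin, and -0.0982 to 0.144 without single arrays. Plin2 gave -0.0358 without trilinolenin. Cpt1a gave 0.026 with the mean of all probe sets and -0.164 to 0.0225 without single arrays. Hmox1 gave -0.181 without tridocosahexaenoin and -0.256 to 0.696 without single arrays. Without single arrays Lpl gave -0.030 to 0.000884, Fkbp5 -0.552 to 0.462 and Mt2 -0.444 to 0.0706. The causes were not tested. The 3 WT control arrays enter every difference, and the smallest difference detectable with them was not determined. Differences as large as 0.54 log2 units, for Slc25a42, were not called.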
